A study of Homo sapiens with 6 samples.

Results

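The annexins are proteins that attach to acidic phospholipids of cell membranes when calcium rises. A conserved core of annexin repeats holds the calcium sites, and a tail at the N terminus differs from member to member and binds partners such as S100 proteins. The family is known for work in membrane repair, vesicle traffic and the handling of inflammation, and ANXA4 is known as an abundant protein of ovarian clear cell carcinoma. The 9 genes described here, ANXA1, ANXA2, ANXA3, ANXA4, ANXA5, ANXA6, ANXA7, ANXA9 and ANXA11, were taken by name from the 39282 genes in the tables. The family was chosen because ANXA1 and ANXA3 were higher with the hairpins in PA-1 and ANXA4 was lower in TOV21G, so those 3 results are descriptions and carry no test. All 9 members passed the filter on low counts, as 16855 genes did.

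The RNA came from PA-1, a line labelled as ovarian teratocarcinoma, and TOV21G, a line labelled as ovarian clear cell carcinoma. In each line the control library came from cells infected with a lentiviral scramble hairpin, and 2 further libraries came from cells infected with MEX3A hairpin 1 or hairpin 2. MEX3A encodes an RNA-binding protein, and no library lacks a lentiviral hairpin. The MEX3A-depleted cells of each hairpin are called a clone in the design text. The question put by the design is how each depleted population differs from the control of its line.

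The libraries held between 14654628 and 19495162 expected counts, and 3 counts, which is what a count of 0 allows, stood at 0.153 to 0.202 CPM (counts scaled to a common library total after TMM adjustment). Such limits cover counting error only. MEX3A was at 30.0% and 40.0% of the control with hairpins 1 and 2 in PA-1, and at 51.2% and 42.3% in TOV21G. The summed level of 7 pluripotency markers was 3509 to 4158 CPM in PA-1 and 31.1 to 84.9 CPM in TOV21G. The summed level of 6 clear cell markers was 2283 to 6372 CPM in TOV21G and 202 to 946 CPM in PA-1. Markers of ovarian surface epithelium, the tissue named in the labels, and mesothelium were summed over 8 genes. The sum was 275 CPM in the PA-1 control and 301 and 414 CPM with the hairpins. In TOV21G it was 161 CPM in the control and 283 and 281 CPM with them. Of these genes KRT8 and KRT18 were present in both lines, while UPK3B stayed at or under 0.153 CPM in every library. The others are not reported singly. Summed leukocyte markers reached at most 0.527 CPM and red blood cell markers 0.0672 CPM. Summed over 5 fibroblast markers the level was 110 CPM in the PA-1 control and 207 and 149 CPM with the hairpins, and 199 CPM in the TOV21G control and 482 and 529 CPM with them. Summed over 4 endothelial markers it was 138, 123 and 246 CPM in PA-1 and at most 2.42 CPM in TOV21G. The part of these markers in the annexin values was not tested. The nuclear RNA NEAT1 was higher in the hairpin libraries, at 270 and 273 CPM against 119 CPM in PA-1 and at 1133 and 1068 CPM against 361 CPM in TOV21G, and its part in the results below was not tested.

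The members lie on 7 chromosomes in GRCh38.p14 (RefSeq) and are all protein-coding. ANXA1 is at chr9:73151865-73170393 on the plus strand, ANXA3 at chr4:78551770-78610447 on the plus strand and ANXA4 at chr2:69643808-69827112 on the plus strand. ANXA2 (chr15:60347151-60397986), ANXA5 (chr4:121667946-121696980), ANXA6 (chr5:151100706-151157779), ANXA7 (chr10:73375101-73414058) and ANXA11 (chr10:80150889-80205808) are on the minus strand. ANXA9 is at chr1:150977306-150995634 on the plus strand.

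The 250 bases before the first RefSeq start are shown for ANXA1, ANXA3 and ANXA4, the members with the largest differences. The starts used in these cells were not measured. They run 5′ to 3′ on the plus strand of GRCh38.p14 at chr9:73151615-73151864, chr4:78551520-78551769 and chr2:69643558-69643807. Capitals mark matches, on either strand, to TATAAA, the GC box GGGCGG, the AP-1 site TGANTCA, the TEAD site GGAATG or the p53 half-site, and overlapping matches are counted separately.
ANXA1: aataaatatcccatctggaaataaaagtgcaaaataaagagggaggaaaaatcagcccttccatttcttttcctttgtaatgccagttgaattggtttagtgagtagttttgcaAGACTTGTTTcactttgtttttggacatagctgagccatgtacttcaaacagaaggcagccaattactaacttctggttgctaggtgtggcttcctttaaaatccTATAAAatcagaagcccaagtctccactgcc
ANXA3: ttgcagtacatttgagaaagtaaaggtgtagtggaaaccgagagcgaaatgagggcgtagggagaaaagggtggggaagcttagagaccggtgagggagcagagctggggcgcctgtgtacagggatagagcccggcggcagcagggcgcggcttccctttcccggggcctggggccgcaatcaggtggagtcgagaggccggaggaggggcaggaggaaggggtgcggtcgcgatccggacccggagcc
ANXA4: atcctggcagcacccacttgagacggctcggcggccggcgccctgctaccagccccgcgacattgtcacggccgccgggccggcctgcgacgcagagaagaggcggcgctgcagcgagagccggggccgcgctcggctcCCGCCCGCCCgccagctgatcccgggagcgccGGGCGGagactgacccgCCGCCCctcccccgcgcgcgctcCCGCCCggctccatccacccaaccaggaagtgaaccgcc

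The ANXA1 window was 38.4% G or C and held 0 CpG dinucleotides, which 6.06% of 35116 RefSeq start windows of the same length share. It held TATAAA 31 bases before the start (10.7% of all windows hold it) and 1 match to the p53 half-site (5.57% of all windows). The ANXA3 window was 64.0% G or C with 18 CpG and held none of the 5 motifs. The ANXA4 window was 77.2% G or C with 36 CpG and held 5 matches to the GC box, 2 of them overlapping, a motif present in 42.6% of all windows. ANXA4 and ANXA6 have 2 RefSeq entries each and ANXA11 has 3, and only the window of the first entry was searched. Of the other members, ANXA2 held the AP-1 site (6.57% of all windows). No searched window of a member held the TEAD site (11.9% of all windows). The ANXA9 window, at chr1:150982042-150982291, lies inside the gene span given above and not before it. A match describes the letters and not a bound site.

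ANXA1 and ANXA3 were far higher with both hairpins in PA-1. ANXA1, whose N-terminal peptides act on formyl peptide receptors to limit inflammation, was at 15.4 CPM in the PA-1 control, 138 CPM with hairpin 1 and 138 CPM with hairpin 2. Both hairpin libraries lay above the control, at 9.0 and 8.98 times its level, and they differed from each other far less than from it. ANXA3, also called lipocortin III and described as an inhibitor of phospholipase A2, was at 3.84 CPM in the PA-1 control, 22.3 CPM with hairpin 1 and 20.2 CPM with hairpin 2. That is 5.80 and 5.26 times the control, whose value rests on 61 counts with an exact 95% Poisson interval of 46.7 to 78.4 counts. The fitted log2 fold changes were 3.17 (approximate SE 0.32) for ANXA1 and 2.46 (SE 0.38) for ANXA3. In PA-1, 2 of the 9 members were at least 2-fold higher with both hairpins, namely this pair, while 3.36% of all genes were; the pair was chosen on these values. In bulk RNA, more cells with a transcript and more of it per cell cannot be told apart.

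In TOV21G the same genes stood differently. ANXA1 was at 427 CPM in the control, 469 CPM with hairpin 1 and 357 CPM with hairpin 2, so the hairpins fell on either side of the control. Its log2 fold change of -0.05 (SE 0.27) did not pass edgeR's quasi-likelihood test (adjusted p = 0.987), and it was 0.13 without hairpin 2 and 0.026 on the log2(TPM + 1) scale. ANXA3 was at 60.4 CPM in the TOV21G control, 35.8 CPM with hairpin 1 and 52.1 CPM with hairpin 2. Both values were under the control, and the log2 fold change of -0.46 (SE 0.31) did not pass (edgeR adjusted p = 0.669). Every TOV21G library held more ANXA1 and more ANXA3 than every PA-1 library, knockdown libraries included. How many of all genes do so was not counted.

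ANXA4, a calcium-dependent membrane-binding protein of secretory epithelia, was lower with both hairpins in TOV21G. It was at 650 CPM in the TOV21G control, 197 CPM with hairpin 1 and 199 CPM with hairpin 2, or 30.3% and 30.6% of the control. The hairpins agreed closely, with differences of -1.72 and -1.71 in log2 CPM, and the fitted log2 fold change was -1.71 (SE 0.22). Of the 9 members, ANXA4 alone was at least 2-fold lower with both hairpins in TOV21G, against 3.36% of all genes, and was chosen on this value. No member was at least 2-fold higher with both hairpins there, against 4.26% of all genes. In the same libraries the summed clear cell markers were at 6372 CPM in the control and at 2283 and 4384 CPM with the hairpins. Among them SPP1, a secreted phosphoprotein, was at 6019 CPM in the control and 1625 and 3765 CPM with the hairpins, while TFPI2, a protease inhibitor, was at 41.2 CPM in the control and 519 and 443 CPM with them. The part of these markers in the ANXA4 result was not tested.

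In PA-1, ANXA4 was at 17.6 CPM in the control, 30.3 CPM with hairpin 1 and 28.9 CPM with hairpin 2. Both hairpins lay above the control, at 1.72 and 1.64 times its level, and the log2 fold change of 0.75 (SE 0.24) did not pass (edgeR adjusted p = 1). ANXA4 therefore sat above the control in PA-1 and below it in TOV21G with each hairpin. In PA-1 the summed clear cell markers were also above the control, at 946 and 934 CPM against 202 CPM, carried by SPP1 at 894 and 852 CPM against 166 CPM.

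**Figure D1:**
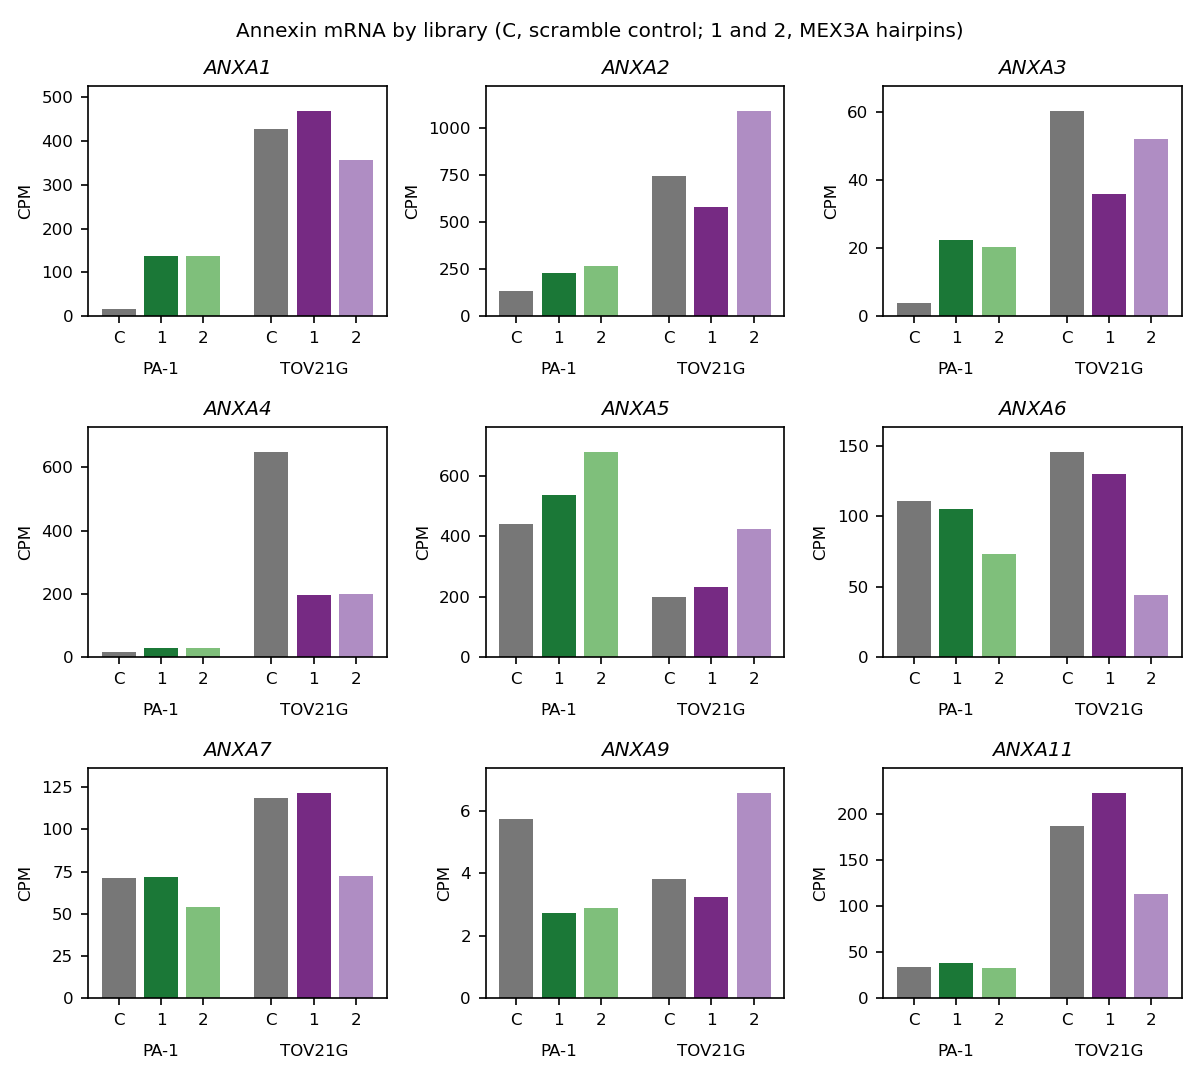
CPM of the 9 annexin genes (y axis, from 0) in each library (1 bar per library, no error bars): C, scramble control; 1 and 2, the MEX3A hairpins. ANXA1 rises from 15.4 and ANXA3 from 3.84 CPM in PA-1, and ANXA4 falls from 650 to 197 and 199 CPM in TOV21G.

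ANXA2 and ANXA5, the most abundant members in PA-1, were above the control with both hairpins in PA-1. ANXA2, which forms a heterotetramer with S100A10 and binds plasminogen activators at the cell surface, was at 133 CPM in the PA-1 control and 227 and 266 CPM with hairpins 1 and 2. The log2 fold change of 0.89 (SE 0.44) did not pass (edgeR adjusted p = 1). In TOV21G it was at 743 CPM in the control, 580 CPM with hairpin 1 and 1093 CPM with hairpin 2. One library was below the control and the other above it, with a log2 fold change of 0.17 (SE 0.42, edgeR adjusted p = 0.928) that turned to -0.36 without hairpin 2.

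ANXA5, the phosphatidylserine-binding protein used as a probe of dying cells, was at 441 CPM in the PA-1 control and 537 and 681 CPM with hairpins 1 and 2 (log2 fold change 0.47, SE 0.42, edgeR adjusted p = 1). In TOV21G it was at 199 CPM in the control and 233 and 425 CPM with the hairpins (0.73, SE 0.43, edgeR adjusted p = 0.629). It was the only member above the control with all 4 hairpin libraries. Of all genes, 33.8% were above it with both hairpins in PA-1 and 31.3% in TOV21G. The share above it with all 4 was not counted. The mean effect of ANXA5 over both lines was 0.60 (SE 0.30, edgeR adjusted p = 0.676). Without TOV21G hairpin 1 the TOV21G value was 1.09. With that library gone TOV21G held 1 library a side, and the fit drew its error from the PA-1 hairpins, so no test is given for it.

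ANXA6, ANXA7 and ANXA11 had their lowest CPM with hairpin 2 in both lines, and none of their effects passed with all libraries in the fit. MALAT1, a nuclear RNA, was at 4315 CPM in the TOV21G control and 9429 and 18455 CPM with hairpins 1 and 2. In PA-1 it was at 910 CPM in the control and 1303 and 1113 CPM with them. Its part in these values was not tested. ANXA6, the member with a doubled core, was at 111 CPM in the PA-1 control and 105 and 72.9 CPM with the hairpins, and at 146 CPM in the TOV21G control and 130 and 43.9 CPM with them. Only the TOV21G library of hairpin 2 stood far apart, at 30.1% of its control. The log2 fold changes of -0.31 (SE 0.65) in PA-1 and -0.75 (SE 0.64) in TOV21G did not pass (edgeR adjusted p = 1 and 0.729). Without TOV21G hairpin 1, ANXA6 had -1.73, again with the error of PA-1 and so without a test.

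ANXA7, a partner of the calcium sensor sorcin, was at 71.3 CPM in the PA-1 control and 71.5 and 53.8 CPM with the hairpins. In TOV21G it was at 119 CPM in the control and 122 and 72.6 CPM with them. ANXA11, which binds the calcium sensor PDCD6 and tethers RNA granules to lysosomes, was at 34.0 CPM in the PA-1 control and 38.0 and 32.3 CPM with the hairpins, and at 186 CPM in the TOV21G control and 223 and 113 CPM with them. None of these 4 effects passed: the log2 fold changes ran from -0.29 to 0.05, with SE of 0.39 to 0.45 and edgeR adjusted p values of 0.835 to 1. The sign rested on hairpin 2 for both genes in TOV21G, where the values without it were 0.034 for ANXA7 and 0.26 for ANXA11. In PA-1 it rested on single hairpins too, at 0.0062 for ANXA7 without hairpin 2 and -0.073 for ANXA11 without hairpin 1.

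ANXA9, a member whose core lacks the usual calcium sites, was the least abundant in every library but the PA-1 control, where ANXA3 was lower. It was at 5.73 CPM in the PA-1 control and 2.73 and 2.90 CPM with the hairpins. It rested there on 91 counts in the control (exact 95% Poisson interval 73.3 to 111.7), 45 (32.8 to 60.2) and 57 (43.2 to 73.9). Both hairpins were below the control, but the log2 fold change of -1.02 (SE 0.54) did not pass (edgeR adjusted p = 1). In TOV21G it was at 3.83 CPM in the control and 3.23 and 6.58 CPM with the hairpins, on either side of the control (0.36, SE 0.56, edgeR adjusted p = 0.863, and -0.25 without hairpin 2).

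**Figure D2:**
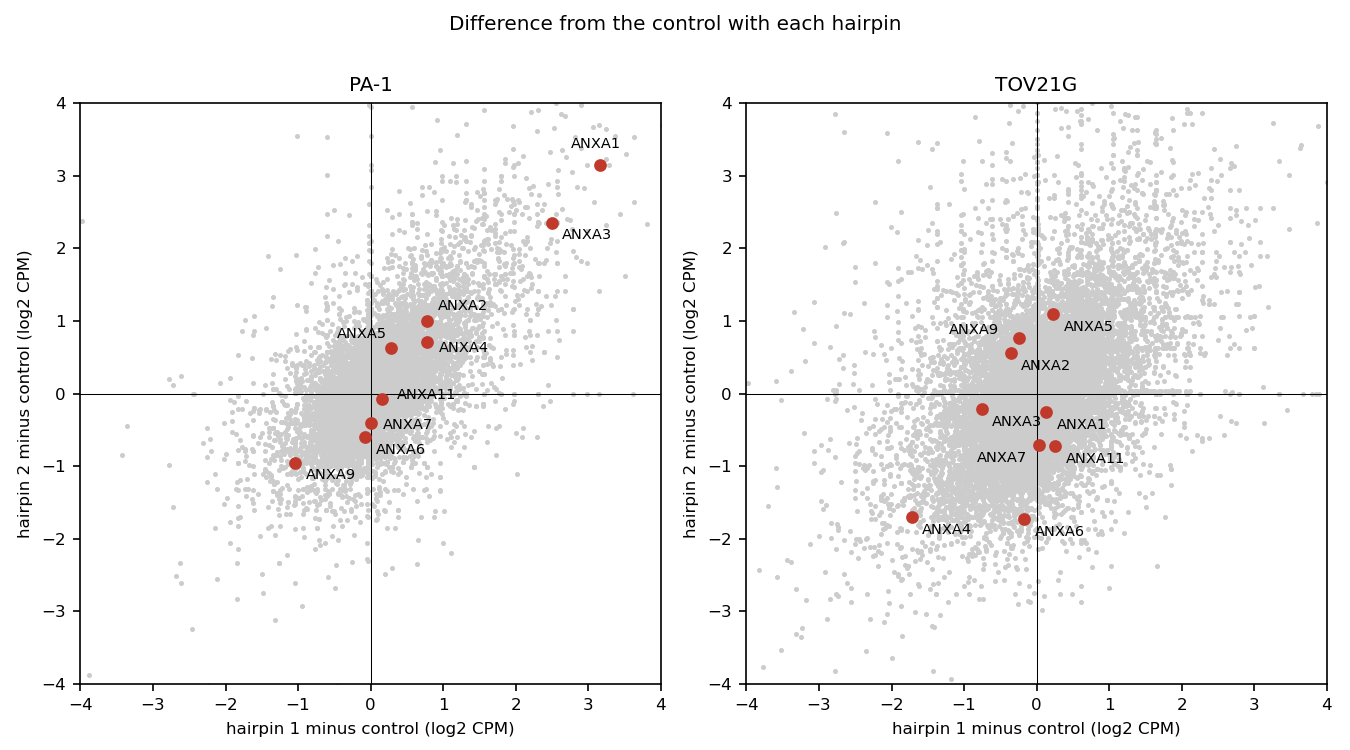
Difference from the control in log2 CPM (prior count 2) with hairpin 1 (x axis) and hairpin 2 (y axis) for 16855 genes (grey) and the 9 members (red) in PA-1 (left) and TOV21G (right). Beyond the axis limits of 4 lie 42 genes in PA-1 and 98 in TOV21G, none of them a member, and both panels share 1 control per line between the axes.

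Counted over the family, 5 of 9 members were above the control with both hairpins in PA-1 and 2 below it, against 33.8% and 34% of all genes. In TOV21G 1 of 9 was above the control with both and 3 were below, against 31.3% and 31.9%. The hairpins fell on either side of the control for 2 members in PA-1 (ANXA7 and ANXA11; 28.4% of all genes) and for 5 in TOV21G (ANXA1, ANXA2, ANXA7, ANXA9 and ANXA11; 32.1% of all genes). On the TPM scale ANXA6 with hairpin 1 moved to 0.01 in each line and ANXA11 with hairpin 2 in PA-1 to 0.01, and with DESeq2's size factors ANXA7 with hairpin 1 in PA-1 moved to -0.01, so the signs of these 4 values are not settled. The median difference over the members was 0.29 and 0.63 with PA-1 hairpins 1 and 2, and -0.17 and -0.26 in TOV21G, where the median of all genes was 0. ANXA1 and ANXA3 in PA-1 and ANXA4 in TOV21G were chosen on these differences. The counts and medians over the members therefore include that choice. The hairpins lay further apart in TOV21G: the median absolute difference between them over the members was 0.22 log2 CPM in PA-1 and 0.86 in TOV21G, against 0.17 and 0.41 over 11556 genes with a mean of at least 5 CPM. Each pair of differences shares its control library.

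By edgeR no gene passed an adjusted p of 0.05 in either line, which is 0% of 16855 genes, while 434 genes (2.57%) in PA-1 and 1612 (9.56%) in TOV21G did so before adjustment. DESeq2 called 34 genes higher (0.219%) and 2 lower (0.0129%) in PA-1, and 94 higher (0.786%) and 132 lower (1.1%) in TOV21G, and none of the members that the rule had not chosen in that line. The effect in TOV21G minus that in PA-1 was tested for the 6 members outside the rule, and none passed. The largest was ANXA9 at 1.38 (SE 0.79, edgeR adjusted p = 1), and the smallest ANXA7 at -0.10 (SE 0.56). No gene of the series passed that contrast by edgeR (642, or 3.81%, before adjustment), and DESeq2 called 6 higher (0.0412%) and 13 lower (0.0892%). Neither did any gene pass edgeR for the mean effect (1383, or 8.21%, before adjustment), where DESeq2 called 96 higher (0.724%) and 37 lower (0.279%). Across these 6 members the mean effect ran from -0.53 (SE 0.46) for ANXA6 to 0.60 for ANXA5.

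Per length, the family's make-up differed between the lines and moved with the hairpins. TPM (deposited, scaled by transcript length) summed over the 9 genes to 1189 in the PA-1 control and to 1892 and 2015 with hairpins 1 and 2. It was 3093 in the TOV21G control and 2914.5 and 3248 with the hairpins, so the PA-1 hairpin libraries lay above their control and those of TOV21G on either side of theirs. ANXA5 supplied 59.3% of the annexin TPM in the PA-1 control and 48.0% and 53.9% with the hairpins, against 9.01%, 12.7% and 18.3% in TOV21G. ANXA1 supplied 2.5% in the PA-1 control and 14.9% and 13.2% with the hairpins. In TOV21G, ANXA2 led with 36.2%, 33.7% and 50.1%, and ANXA4 went from 16.8% in the control to 6.11% and 4.83%. The share of any member depends on all the others.

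**Figure D3:**
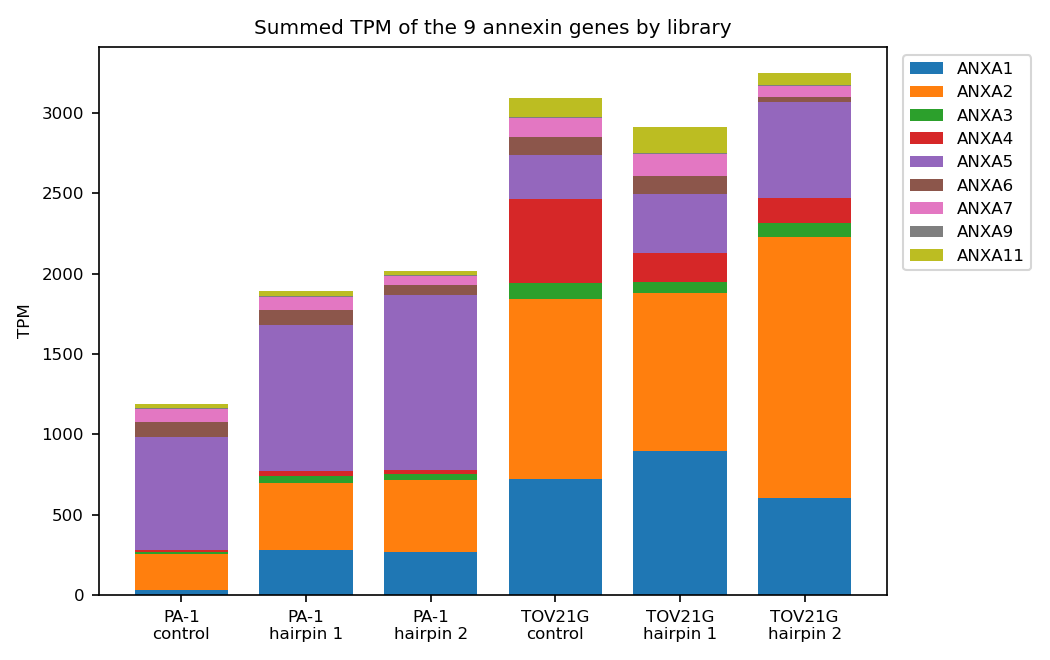
Deposited TPM of the 9 annexin genes stacked by library (y axis from 0; 1 library per bar, no error). The PA-1 bars grow from 1189 to 1892 and 2015 TPM, and the ANXA4 layer of TOV21G thins from 521 to 178 and 157 TPM.

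TOV21G was also set against PA-1, with the control and knockdown groups of each line weighted equally. The rule did not use this contrast, but the same libraries chose ANXA1, ANXA3 and ANXA4. Here 5 members were higher in TOV21G and 1 was lower by edgeR, against 20% and 20.6% of all genes, and against 20.4% and 20.5% of genes with a mean of at least 5 CPM (40.9% either way). DESeq2 called the same 6 members, against 19.6% of genes higher and 20.6% lower, and 51% of genes had an edgeR p under 0.05 before adjustment. ANXA4 differed most, with a log2 fold change of 3.97 (SE 0.19), followed by ANXA1 at 3.19 (SE 0.22) and ANXA3 at 2.51 (SE 0.25). These genes are among the 5 higher members, and no adjusted p is given for them because the same libraries chose them. ANXA11 had 2.36 (SE 0.34, edgeR adjusted p = 0.00595) and ANXA2 had 2.12 (SE 0.31, adjusted p = 0.00647). For these 5 genes every TOV21G library lay above every PA-1 library. The share of all genes that separate the lines in this way was not counted.

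ANXA5 was lower in TOV21G, at -1.02 (SE 0.30, edgeR adjusted p = 0.0457), with PA-1 libraries at 441 to 681 CPM and TOV21G libraries at 199 to 425 CPM. That call was lost without either PA-1 hairpin (edgeR adjusted p = 0.1 without hairpin 1 and 0.142 without hairpin 2). ANXA7 had 0.68 (SE 0.28, edgeR adjusted p = 0.11), and 0.85 when TOV21G hairpin 2 was left out. ANXA6 (0.18, SE 0.46) and ANXA9 (0.11, SE 0.39) did not pass, with edgeR adjusted p values of 0.777 and 0.843. The comparison is between 2 cell lines and not between tumour types.

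The gap between the lines was also fitted with the control libraries alone and with the knockdown libraries alone. Between the controls, ANXA4 differed by 5.20 (SE 0.31), ANXA1 by 4.80 (SE 0.37) and ANXA3 by 3.97 (SE 0.42). Between the knockdown libraries the values were 2.74 (SE 0.20), 1.58 (SE 0.23) and 1.05 (SE 0.26). No test is given for these, since the same libraries chose the genes. ANXA11 had 2.46 between the controls and 2.26 between the knockdown libraries, and ANXA2 had 2.49 and 1.76. The control libraries are those of the contrasts that chose the members, so the smaller values among the knockdown libraries repeat the choice for these 3 genes. The fit between the controls has 1 library a side and takes its error wholly from the hairpin pairs. ANXA5 did not pass between the controls alone (-1.15, edgeR adjusted p = 0.175) or between the knockdown libraries alone (-0.89, edgeR adjusted p = 0.101).

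**Figure D4:**
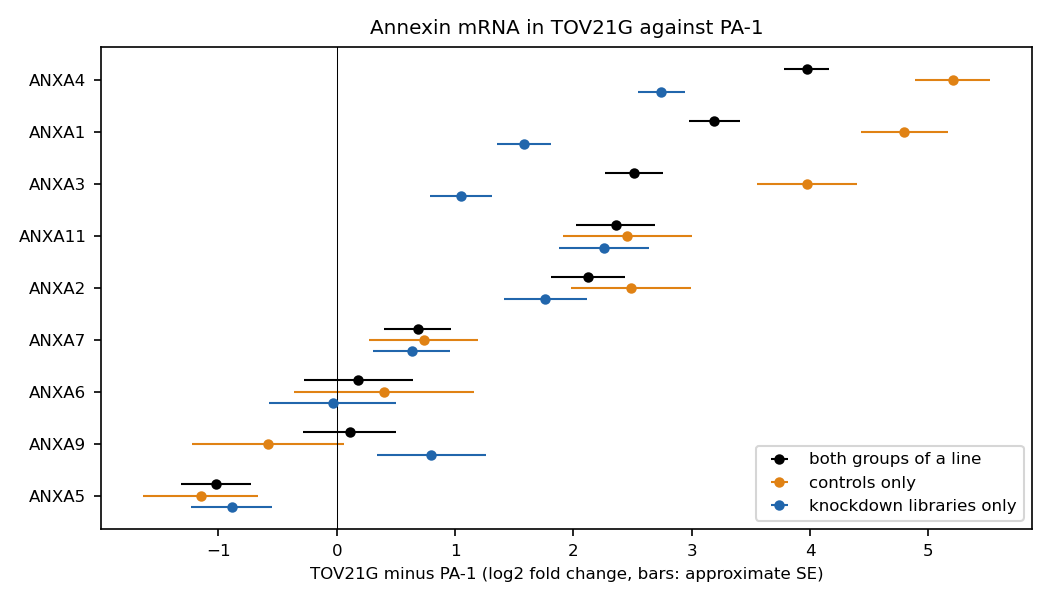
Log2 fold change of each member, TOV21G minus PA-1 (x axis; bars, approximate SE of the edgeR fit), with both groups of a line, the controls only or the knockdown libraries only. ANXA4, ANXA1 and ANXA3 lie to the right in all 3 settings and nearest to 0 among the knockdown libraries.

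Of the other annexin genes, 2 of 7 passed the filter on low counts and none reached the lowest member value, 2.73 CPM for ANXA9. ANXA13 was at 1.17 CPM in the TOV21G control, 0.0659 and 1.07 CPM with the hairpins, and at 0 in PA-1. The ANXA2 pseudogene ANXA2P2 stayed at or under 0.806 CPM, a small level beside ANXA2, with which it could share reads. ANXA8, ANXA8L1, ANXA10, ANXA2P1 and ANXA2P3 were under 0.25 CPM in every library.

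The calcium-sensing partners of the family differed between the lines. Of 9 S100 and EF-hand partner genes 8 passed the filter, and by edgeR 7 were higher and 1 was lower in TOV21G than in PA-1 (40.6% of all genes were called either way). Of the 7, S100A6 had 0 counts in PA-1 and passed the filter only through TOV21G, so its direction was set in advance. DESeq2 called 7 of the 8 and not S100B, the 1 lower gene. In the knockdown contrasts 0 passed in either line by edgeR (2 in PA-1 and 0 in TOV21G at an unadjusted p under 0.05, 0 by DESeq2). Over the measured partners the median difference was 0.27 and 0.28 with the PA-1 hairpins and -0.02 and 0.16 with those of TOV21G, where all genes had 0. S100A10, the partner of ANXA2, was at 30.3 CPM in the PA-1 control and 56.9 and 107 CPM with the hairpins, and at 81.3 CPM in the TOV21G control and 128 and 221 CPM with them. All 4 hairpin libraries lay above their control. S100A11, the partner of ANXA1, was at 34.6 CPM in the PA-1 control and 53.2 and 60.9 CPM with the hairpins, and at 301 to 356 CPM in TOV21G, where hairpin 1 had -0.12 log2 CPM but 0.04 on the TPM scale. S100A6, which binds several annexins, had 0 counts in all 3 PA-1 libraries, where a count of 0 allows at most 0.189 CPM, and stood at 274 CPM in the TOV21G control and 176 and 240 CPM with the hairpins. S100A4 was below the control with both hairpins in PA-1 (26 and 25.1 against 36.6 CPM) and on either side of it in TOV21G (227 and 81.2 against 133 CPM).

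The receptors of ANXA1 were low. FPR1, a formyl peptide receptor, had 0 counts in PA-1 and 5, 9 and 29 counts in TOV21G (control, hairpin 1 and hairpin 2). The last had an exact 95% Poisson interval of 19.4 to 41.6. FPR1 passed the filter on low counts only through TOV21G, so no test between the lines is given for it. FPR2 and FPR3 reached at most 0.134 and 0.132 CPM, and the phospholipase PLA2G4A was under the lowest ANXA9 value in every library. PLA2G2A, a secreted phospholipase, was at 5.40 CPM in the PA-1 library of hairpin 1 and at most 0.203 CPM in any other.

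Genes of the plasminogen system, which ANXA2 with S100A10 gathers at the cell surface, are described by 3 of the more abundant ones. None of the 3 passed edgeR or DESeq2 for the knockdown in either line. For the mean effect over both lines DESeq2 called PLAU (0.724% of all genes were called higher) and edgeR did not. Between the lines both tools called PLAT and PLAU, where edgeR called 40.6% of all genes. PLAU, the urokinase activator, was at 51.1 CPM in the PA-1 control and 127 and 474 CPM with the hairpins, and at 329 CPM in the TOV21G control and 664 and 583 CPM with them. PLAT, the tissue activator, was above its control by 0.46 to 0.61 log2 CPM in all 4 hairpin libraries. SERPINE2, a serine protease inhibitor, was at 67.3 CPM in the PA-1 control and 95.8 and 67.4 CPM with the hairpins, so that only hairpin 1 stood apart from the control. In TOV21G it fell on either side of the control, with -2.67 log2 CPM for hairpin 1 and 0.53 for hairpin 2.

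Of 15 measured genes of plasma membrane repair, 9 were above the control with both hairpins in PA-1 and 8 in TOV21G (33.8% and 31.3% of all genes), and 0 were below it with both in either line (34% and 31.9%). By edgeR 0 passed (3 in each line at an unadjusted p under 0.05, against 2.57% and 9.56% of all genes; DESeq2 called none in PA-1 and EHD2 in TOV21G). Their median difference was 0.11 and 0.21 in PA-1 and 0.24 and 0.50 in TOV21G. MYOF, a ferlin of membrane fusion, was at 34.9 CPM in the PA-1 control and 77.4 and 104.6 CPM with the hairpins, and on either side of the control in TOV21G (1922 and 1018 against 1587 CPM). AHNAK, a giant scaffold that binds ANXA2 with S100A10, was at 313 CPM in the PA-1 control and 396 and 437 CPM with the hairpins, and at 1610 CPM in the TOV21G control and 1496 and 2283 CPM with them (on the TPM scale hairpin 1 of TOV21G turned to 0.07 log2). CAPN2, a calcium-activated protease, was above its control in all 4 hairpin libraries, by 0.42 to 0.75 log2 CPM. CAPNS1, the shared small subunit of calpains, was above the control with hairpin 1 and below it with hairpin 2 in both lines. Between the lines, 8 of the 15 were higher in TOV21G and 1 was lower by edgeR, against 20% and 20.6% of all genes.

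**Figure D5:**
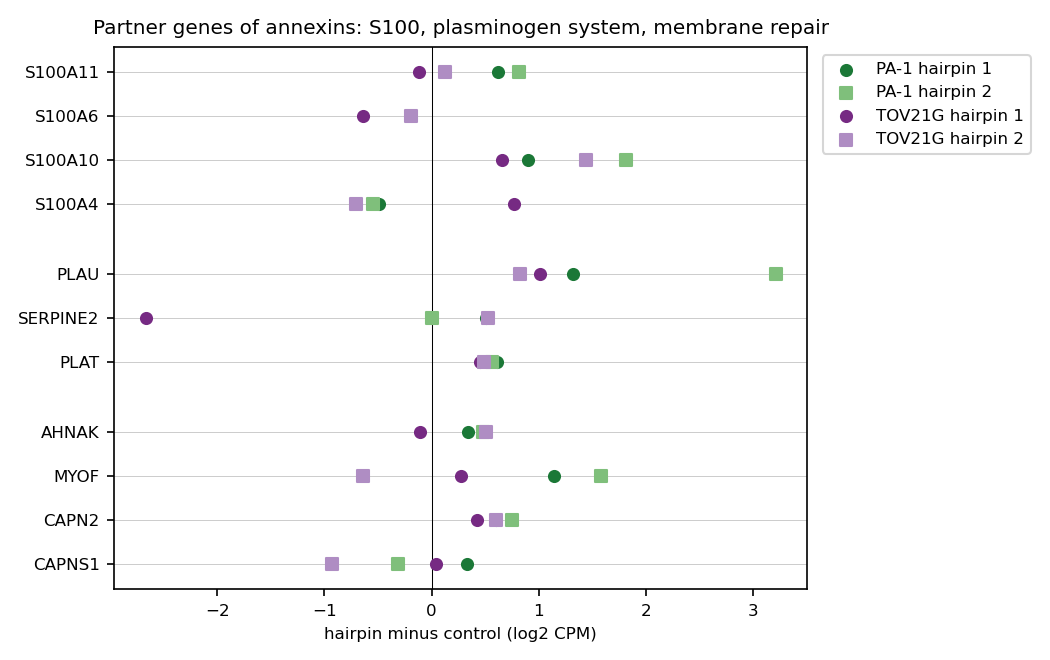
Hairpin minus control in log2 CPM (x axis, prior count 2) for 4 S100, 3 plasminogen system and 4 membrane repair genes; each point is 1 hairpin library against its line's control. S100A10, PLAU, PLAT and CAPN2 lie above 0 in all 4; S100A6 has no PA-1 points because its counts there were 0.

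The genes most like each of the 3 leading members were sought over the 4 hairpin differences among 11555 genes with a mean of at least 5 CPM, by Euclidean distance in log2 CPM. For ANXA1 they were SMARCA2, LINC00472, IGFBP7, TNC and BCAN-AS1, at distances of 0.80 to 1.09. LINC00472 had 2.53 and 3.66 with the PA-1 hairpins and 0.07 and -0.51 with those of TOV21G, while SMARCA2 rested on 3 counts in the PA-1 control. For ANXA3 they were DTNA, NPNT, CDCP1, ESRP2 and ELOVL7, at 0.40 to 0.79. The nearest, DTNA, held 2 counts in the TOV21G control and 0 and 1 with the hairpins, so its likeness there is set by the floor, and NPNT and ESRP2 held 4 and 3 counts in the PA-1 control. ELOVL7, which was counted well in every library, had 2.05 and 1.93 in PA-1 and -0.27 and -0.14 in TOV21G. For ANXA4 they were LRP8, FUT11, LYPLAL1, SGPP2 and ARHGEF6, at 0.54 to 0.66. LYPLAL1 held 5 counts in the TOV21G control and 0 with both hairpins, so its values there are those of the floor, and ARHGEF6 held 23, 4 and 7 counts in TOV21G. LRP8 had 0.59 and 0.91 in PA-1 and -1.55 and -1.27 in TOV21G. Likeness in these differences is not likeness in level: LRP8 was at 131 to 246 CPM in PA-1 and at 12.5 to 37.0 CPM in TOV21G, whereas ANXA4 was higher in TOV21G, and TNC, DTNA, LYPLAL1 and ARHGEF6 likewise had their highest levels in PA-1. The differences of a line share a control, and BCAN-AS1 may share reads with a gene on the other strand, since the counting's strand setting is not stated.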

How the data were processed

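Poly(A)-selected RNA of 6 libraries was sequenced with a stranded kit. The deposited RSEM output holds, per the file headers, an expected count, TPM, FPKM and an abundance-weighted transcript length for every gene, 1 table a library. The submitters' processing notes name cutadapt 1.12, STAR 2.5.3a, RSEM 1.2.31, edgeR 3.26.8 and the build hg38; their order and the strand setting of the counting are not given in the sources used here. FPKM was not used; the deposited FPKM values are scaled by length and total like TPM.

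Expected counts were rounded and fitted with edgeR 4.0.16 (R 4.3.3): TMM scaling, filterByExpr on 4 groups (line by hairpin target), quasi-likelihood F test with 1 mean per group, 2 residual degrees of freedom, Benjamini-Hochberg over 16855 genes, threshold 0.05. Error was estimated from the pair of hairpin libraries within each line and pooled over both lines, on the assumption that a lone control varies alike. The labels name no separate cultures, so the p-values reflect library-to-library spread, which may be technical, and hairpin differences. The biological coefficient of variation was 0.295. The approximate SE is the absolute log2 fold change over the square root of F. For ANXA1, ANXA3 and ANXA4 it makes no allowance for their choice on these data and is no test. Single-hairpin differences use log2 CPM (prior count 2), untested.

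The members, the gene lists and the tests were chosen with earlier results of these data known. The rule named MEX3A, the members, the 4 most abundant genes of each partner list and the 5 genes most like ANXA1, ANXA3 and ANXA4; ANXA13 and the other annexin genes, FPR2, S100B, EHD2, NEAT1, MALAT1 and the markers TFPI2, SPP1, KRT8, KRT18 and UPK3B were named after their values were seen. Alternatives were DESeq2 1.42.0, limma 3.58.1 on log2(TPM + 1), DESeq2's size factors, no filter, a hairpin block, each line alone and leaving out each hairpin library. The fits were tested on simulated data. Gene positions and start windows are from RefSeq (GRCh38.p14). Protein sequences were not used here. Of the abundant plasminogen system genes, 1 is not reported here, nor are counts over that list.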

Additional observations from a re-analysis of the deposited data

Results flagged for a closer look

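For ANXA3 both hairpins lay above the control in PA-1 and below it in TOV21G, where the effect did not pass (-0.46, edgeR adjusted p = 0.669), and the mean difference in TOV21G minus that in PA-1 was -2.91 log2 CPM. For ANXA4, whose PA-1 effect did not pass (0.75, edgeR adjusted p = 1), both hairpins lay above the control in PA-1 and below it in TOV21G, with a difference of -2.46. Neither difference was tested, because the PA-1 value of ANXA3 and the TOV21G value of ANXA4 chose the members. The groups were too small for a search for single outlying libraries.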

How the results depend on the processing

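For each comparison the number of genes called moved with the tool. In PA-1 edgeR called 0, DESeq2 36 and edgeR with the hairpin number as a replicate block 13; in TOV21G the numbers were 0, 226 and 36, for the mean effect 0, 133 and 22, and for the difference between lines DESeq2 called 19. The hairpin number marks the same reagent, not a shared culture; the hairpin 2 minus hairpin 1 differences of the lines had a Pearson r of 0.24 across genes, and the cause of the change was not tested. Leaving out 1 hairpin library gave 0 to 1489 genes in TOV21G and 0 to 526 for the mean effect (the highest without TOV21G hairpin 1), and 3850 to 9946 for TOV21G against PA-1, where 6837 were called with all libraries and 2508 between the controls alone. Genes at least 2-fold higher or lower with both hairpins were 566 and 115 in PA-1 and 718 and 567 in TOV21G; on log2(TPM + 1) they were 204, 21, 269 and 215, and with a prior count of 0.5 the lower genes in PA-1 were 181. The larger pseudocount relative to low values shrinks folds by construction.

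Signs that turned belonged to effects that had not passed. On log2(TPM + 1) these were ANXA1 in TOV21G (0.026), ANXA11 in the mean effect (0.031), and ANXA6 (-0.060) and ANXA9 (-0.21) between the lines. ANXA9 was at -0.58 between the controls alone, and ANXA6 at -0.034 between the knockdown libraries alone, an alternative chosen after seeing the data. Leaving out 1 hairpin library gave -0.073 to 0.16 for ANXA11 and -0.41 to 0.0062 for ANXA7 in PA-1. In TOV21G it gave -0.26 to 0.13 for ANXA1, -0.36 to 0.56 for ANXA2, -0.71 to 0.034 for ANXA7, -0.25 to 0.78 for ANXA9 and -0.73 to 0.26 for ANXA11. The mean effect of ANXA11 ran from -0.34 to 0.15. The difference between lines ran from -0.52 to 0.22 for ANXA7, -0.24 to 0.63 for ANXA5, -1.42 to 0.14 for ANXA6 and -0.78 to 0.20 for ANXA11. TOV21G against PA-1 ran from -0.30 to 0.48 for ANXA6 and -0.19 to 0.33 for ANXA9. The fold changes of ANXA1 and ANXA3 in PA-1 and of ANXA4 in TOV21G kept their direction under every alternative run. Between the lines, ANXA7 passed with the replicate block (0.67, edgeR adjusted p = 0.0189). Depth limits ANXA9 and the annexin genes that were not members; 1 control per line limits every hairpin result.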

Other observations

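RSEM's abundance-weighted transcript length gives a view of each gene's isoform mix that the choice of members did not use. It varied over the 6 libraries by 0.93 to 16.7 bases for ANXA1, ANXA2, ANXA3, ANXA5 and ANXA6 and by 46.1 bases for ANXA7, so the large differences of ANXA1 and ANXA3 came with nearly constant lengths. ANXA4 was at 2789 bases in the PA-1 control and 2715 and 2700 bases with the hairpins, and at 2665 to 2681 bases in TOV21G. ANXA11 was longest in the PA-1 control, at 3432 bases against 3087 and 3234 bases with the hairpins, and lay between 3197 and 3257 bases in TOV21G. ANXA9 was at 1656 to 1753 bases in PA-1 and at 1828 to 1863 bases in TOV21G, at 45 to 98 counts per library. The lengths of the lines did not overlap for ANXA9, for ANXA4 or for ANXA5, whose whole range was 0.93 bases. The share of all genes without such overlap was not counted. These lengths carry no error of their own, and no test was run.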
